A study of Homo sapiens with 8 samples.

Results

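Metallothioneins and the genes that sense and move zinc were followed in A549 cells after knock-down of NFE2L2, the gene for the antioxidant transcription factor NRF2. The group was set by name and held 9 genes of the 60291 in the count files, namely the metallothioneins MT1E, MT1F, MT1G, MT1M, MT1X and MT2A, the zinc sensor MTF1, the zinc exporter SLC30A1 and the zinc importer SLC39A10. A549 is a human lung adenocarcinoma line with loss of KEAP1 function, which leaves NRF2 active, and all groups shared this background. Each transfection used 250000 cells, with 5 nmol of siRNA where one was given, and RNA was taken after 48 h. The cells were not authenticated by the study. The 3 siRNA duplexes against NFE2L2 gave 1 library each (NFE2L2 siRNA 1 to 3, n = 3), 2 control duplexes gave 2 libraries each (control siRNA 1 and 2 from duplex 1, control siRNA 3 and 4 from duplex 2, n = 4), and 1 mock transfection had no replicate. Since each NFE2L2 duplex was used in 1 transfection, duplex and transfection cannot be told apart in that group, and all values come from a single cell line.

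Metallothioneins are short, cysteine-rich proteins that bind zinc, copper and cadmium and buffer the free zinc of the cell. MTF1 is a zinc-finger transcription factor that is activated by zinc and binds metal response elements (MREs) in the promoters of metallothionein genes and of SLC30A1, whose product carries zinc out of the cell. SLC39A10 brings zinc into the cell. NRF2 binds antioxidant response elements (AREs) and is known for its control of glutathione and redox genes, and both metals and oxidants are known inducers of metallothioneins.

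The coding sequences of the 3 metallothioneins of the group with usable read counts are shown because their likeness bears on how reads could be assigned. Each runs from the start to the stop codon and holds 186 bases, joined from exons on the plus strand of chromosome 16 in GRCh37. MT2A lies at chr16:56642568-56643266, MT1F at chr16:56691971-56693076 and MT1X at chr16:56716453-56717961, introns included. Capitals mark the bases that differ from MT2A.
MT2A coding sequence: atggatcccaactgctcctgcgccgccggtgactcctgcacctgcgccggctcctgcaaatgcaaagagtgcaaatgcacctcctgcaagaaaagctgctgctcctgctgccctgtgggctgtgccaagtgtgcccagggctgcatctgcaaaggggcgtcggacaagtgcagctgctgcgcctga
MT1F coding sequence: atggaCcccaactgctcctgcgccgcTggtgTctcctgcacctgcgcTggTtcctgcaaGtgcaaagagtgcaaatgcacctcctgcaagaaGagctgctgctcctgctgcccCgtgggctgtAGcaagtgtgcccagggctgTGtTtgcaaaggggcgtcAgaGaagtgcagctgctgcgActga
MT1X coding sequence: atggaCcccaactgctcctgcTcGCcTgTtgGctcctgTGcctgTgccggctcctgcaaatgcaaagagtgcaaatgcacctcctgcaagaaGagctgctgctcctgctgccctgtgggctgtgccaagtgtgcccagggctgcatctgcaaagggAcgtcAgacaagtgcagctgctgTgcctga

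MT1F differed from MT2A at 16 of the 186 bases (91.4% identity) and MT1X at 14 (92.5%), while MT1F and MT1X were 88.7% identical. Over the whole exons the genes were more easily told apart. Of all 50-base windows within the exons, 822 of 865 were found once in GRCh37 for MT2A, 1644 of 1678 for MT1X and 1741 of 1754 for MT1F, and at 75 bases all windows of the 3 genes were unique. Unique windows were fewer in MT1E, MT1G and MT1M, at 86.0%, 84.8% and 81.0% for 50 bases. For 75 bases they were 91.3%, 95.2% and 99.7%. Reads with more than 1 placement were left out of the counts, so the levels of MT1E, MT1G and MT1M are the more exposed to such losses. In GENCODE v44, MT1X also shares 321 of its 1727 exon bases (18.6%) with a gene on the same strand, ENSG00000259827. Reads there would be set aside as ambiguous only if the earlier release used for counting had the same overlap, which was not checked.

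Promoter letters were read from RefSeq windows of GRCh38.p14, of which 5 of the 9 genes had one (not MT1E, MT1F, MT1G and MT1M). Sequences are the 250 bases before the start site of the 3 genes with matches to both motifs, shown to place the motifs beside the expression values below. They are written along the gene's own strand, and capitals mark each match on either strand to the MRE core (TGCACNC or TGCGCNC) or to the ARE core (TGACNNNGC). The MT2A stretch is chr16:56608334-56608583 (plus strand), the MT1X stretch chr16:56682220-56682469 (plus strand) and the SLC30A1 stretch chr1:211579162-211579411 (minus strand).
MT2A upstream: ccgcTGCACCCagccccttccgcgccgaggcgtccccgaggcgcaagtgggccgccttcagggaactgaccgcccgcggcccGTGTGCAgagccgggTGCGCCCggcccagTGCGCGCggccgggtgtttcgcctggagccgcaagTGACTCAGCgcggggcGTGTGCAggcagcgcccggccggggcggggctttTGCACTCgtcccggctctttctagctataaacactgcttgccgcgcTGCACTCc
MT1X upstream: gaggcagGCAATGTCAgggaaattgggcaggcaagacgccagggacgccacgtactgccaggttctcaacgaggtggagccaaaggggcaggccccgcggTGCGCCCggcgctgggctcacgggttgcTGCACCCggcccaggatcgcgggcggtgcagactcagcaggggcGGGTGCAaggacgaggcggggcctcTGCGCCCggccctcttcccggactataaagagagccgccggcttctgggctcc
SLC30A1 upstream: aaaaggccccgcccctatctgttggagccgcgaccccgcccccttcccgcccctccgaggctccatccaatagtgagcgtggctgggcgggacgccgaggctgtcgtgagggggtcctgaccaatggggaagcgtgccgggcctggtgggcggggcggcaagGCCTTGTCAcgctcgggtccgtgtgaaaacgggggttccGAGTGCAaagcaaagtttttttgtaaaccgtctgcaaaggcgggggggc

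The full windows, which add 50 bases after the start, held 8 MRE matches in MT2A, 4 in MT1X and 2 in SLC30A1. Among all 35116 promoter windows of this length, 0.0199% held at least 8 matches, 0.601% at least 4 and 8.60% at least 2. SLC39A10 had 1 match in the second of its 2 windows, as had 29.6% of all windows, and the MTF1 window held none. MT2A, MT1X and SLC30A1 each held 1 ARE match, a feature of 13.3% of all windows. The ARE letters of MT2A (TGACTCAGC, from -104 to -96 relative to the start) overlap the AP-1 motif TGACTCA. These are matches of letters and were not tested as binding sites.

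Read depth was similar between libraries, with 35525141 to 41645410 reads counted on genes, and 3 reads correspond to 0.0720 to 0.0844 CPM (reads of a gene scaled to the total of its library). NFE2L2 itself fell to 32.9, 52.0 and 29.7 CPM in the NFE2L2 siRNA libraries, against 106.7 to 117.1 CPM in the controls (log2 fold change -1.55 ± 0.18 SE, edgeR adjusted p = 0.000994), and 110.2 CPM in mock. The second duplex thus left the most NFE2L2 mRNA, 46.6% of the control mean against 29.5% and 26.6%. All 5 targets of NRF2 that the study names (GCLC, GCLM, HMOX1, NQO1 and TXNRD1) fell, where 1.36% of all tested genes were called lower. The calls of NFE2L2 and HMOX1 were lost with the control duplexes summed (edgeR adjusted p = 0.023 and 0.019) and against either control duplex alone. Of the cell type markers, all 5 epithelial genes were present (8391 to 12955 CPM summed after NFE2L2 siRNA, 8640 to 9245 in controls, mostly KRT8 and KRT18), whereas each of the 4 alveolar type II markers had under 10 reads in every library. The libraries of the 2 control duplexes also differed, as described at the end.

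Levels are CPM scaled by TMM, a normalization that sets the bulk of genes equal between libraries, and a gene was called changed at an adjusted p below 0.01 in edgeR's quasi-likelihood test. With bulk RNA a change in cell number of a kind and in RNA per cell cannot be told apart. After NFE2L2 knock-down, 2 of the 6 tested genes, MT1F and MT2A, rose, and none fell. Across all 17811 tested genes 2.76% were called, 1.39% as higher. MT1X had a mean above that of the controls but was not called, and MTF1, SLC30A1 and SLC39A10 lay close to their control levels. At an adjusted p below 0.05 all 3 tested metallothioneins of the group were higher, as were 4.63% of all genes. The 3 remaining metallothioneins of the group had too few reads for a test. MT1A, a metallothionein outside the group, was tested but not called (edgeR adjusted p = 0.579). The median log2 fold change was 1.17 over the 3 tested metallothioneins of the group and 0.02 over MTF1 and the 2 transporters, compared with 0.01 over all tested genes.

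**Figure D1:**
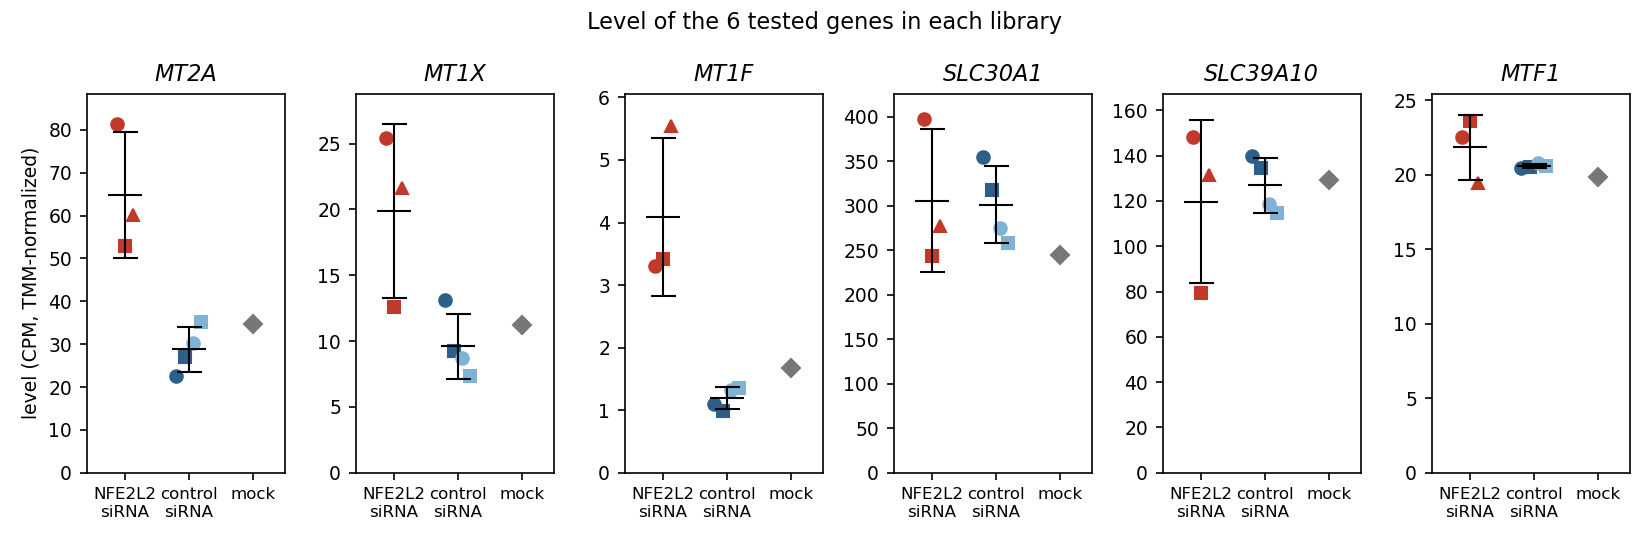
Level (CPM, TMM-normalized, linear axes from 0) of the 6 tested genes in each library, with NFE2L2 siRNA in red (circle, square and triangle for duplexes 1 to 3), control duplex 1 in dark blue, control duplex 2 in light blue and mock in grey. Bars show mean ± SD for n = 3 and n = 4, and the 3 red points lie above all blue points for MT2A and MT1F only.

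MT2A (ENSG00000125148.6, chr16:56642496-56643409 in GRCh37, plus strand) is the main metallothionein of many human cells. Its level was 81.3, 52.8 and 60.2 CPM with NFE2L2 siRNA 1 to 3 and 22.6, 27.0, 30.3 and 35.1 CPM with control siRNA 1 to 4, and mock had 34.6 CPM. All 3 knock-down libraries lay above all 4 controls and the mock, with duplex 1 highest and duplex 2 lowest of the 3. The means were 64.8 ± 14.8 CPM (SD, n = 3) and 28.8 ± 5.27 CPM (SD, n = 4), a log2 fold change of 1.17 ± 0.18 (SE, 95% interval 0.78 to 1.57, edgeR adjusted p = 0.00425). The call depended on single libraries. It was lost without NFE2L2 siRNA 3 (adjusted p = 0.015), control siRNA 1 (0.011), control siRNA 2 (0.023) or control siRNA 3 (0.017), and when the 2 libraries of each control duplex were summed to 1 (0.054), with log2 fold changes of 0.97 to 1.37 over all alternatives.

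MT1F (ENSG00000198417.5, chr16:56691643-56694610, plus strand) was expressed at a much lower level and had the largest fold change of the group. It had 118, 134 and 236 reads (3.30, 3.41 and 5.55 CPM) with NFE2L2 siRNA 1 to 3 and 41, 37, 49 and 49 reads (1.10, 0.995, 1.32 and 1.36 CPM) with control siRNA 1 to 4. Every knock-down library lay above all controls and above mock (1.68 CPM), and the third duplex stood highest. The log2 fold change was 1.78 ± 0.23 (SE, 95% interval 1.27 to 2.28, edgeR adjusted p = 0.00181), with means of 4.08 ± 1.27 (SD, n = 3) and 1.19 ± 0.17 CPM (SD, n = 4). By log2 fold change MT1F ranked 57 of 17811 tested genes. The call was lost without control siRNA 2 (adjusted p = 0.011) and with the control duplexes summed (0.042), while the log2 fold change was 1.49 to 1.95 over all alternatives. For 11.9% of all tested genes, as for MT1F and MT2A, the 3 knock-down libraries lay above the 4 controls.

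MT1X (ENSG00000187193.8, chr16:56716382-56718108, plus strand) did not separate the groups. Its level was 25.4, 12.6 and 21.6 CPM with NFE2L2 siRNA 1 to 3 and 13.1, 9.28, 8.70 and 7.37 CPM with control siRNA 1 to 4, and mock had 11.3 CPM. NFE2L2 siRNA 2 lay below control siRNA 1, whereas the other two knock-down libraries were above all controls. The log2 fold change was 1.05 ± 0.25 (SE, 95% interval 0.49 to 1.60, edgeR adjusted p = 0.0324), which missed the threshold. It passed with DESeq2 (adjusted p = 0.0013), a test that called 4.05% of genes as higher, with genes of 1 read or more kept (0.0014), and without NFE2L2 siRNA 2 (0.0046).

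MT1E (ENSG00000169715.10) and MT1M (ENSG00000205364.3) had 0 reads in all 8 libraries, and MT1G (ENSG00000125144.9) had 1 read in NFE2L2 siRNA 1 and 0 elsewhere. A count of 0 allows a level of up to 0.0844 CPM in the shallowest library, for counting error alone. A difference in these genes was not detectable at this depth, and they were left out of the test by the minimum of 10 reads in any library.

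Summed over the metallothioneins of the group, which leaves out MT1A, the level was 110.1, 68.8 and 87.4 CPM with NFE2L2 siRNA 1 to 3 and 36.8, 37.3, 40.3 and 43.8 CPM with control siRNA 1 to 4, and mock had 47.5 CPM. The group means were 88.8 ± 20.6 (SD, n = 3) and 39.6 ± 3.23 CPM (SD, n = 4). MT2A supplied 73.2% ± 3.99 of these reads after knock-down and 72.3% ± 7.92 in the controls. The share of MT1X was 22.1% ± 3.36 and 24.7% ± 8.00, and that of MT1F 4.77% ± 1.68 and 3.01% ± 0.26. The sum was not tested, since it is a score over chosen genes, and the shares overlapped between groups.

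**Figure D2:**
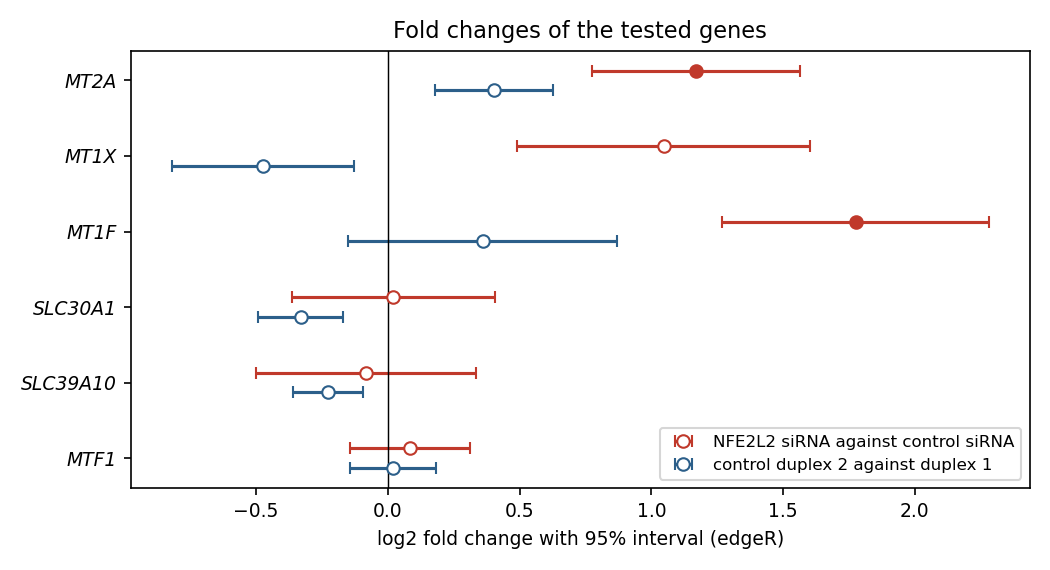
Log2 fold change with its 95% interval from edgeR for the 6 tested genes, for NFE2L2 siRNA against control siRNA (red) and for control duplex 2 against control duplex 1 (blue), with filled points where the adjusted p was below 0.01. Only MT2A and MT1F in the knock-down comparison are filled, and the 3 metallothionein intervals in red lie above 0.

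MTF1 (ENSG00000188786.9, chr1:38275246-38325264, minus strand), the zinc sensor, was at 22.5, 23.6 and 19.4 CPM with NFE2L2 siRNA 1 to 3 and at 20.5, 20.6, 20.8 and 20.6 CPM in the controls. The knock-down libraries lay on both sides of the controls, which themselves differed little. The log2 fold change was 0.08 ± 0.10 (SE, 95% interval -0.14 to 0.31, edgeR adjusted p = 0.654), an interval that holds both small rises and small falls of MTF1 mRNA. The counts do not measure MTF1 protein or its activity.

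SLC30A1 (ENSG00000170385.9, chr1:211744910-211752503, minus strand) was at 397.0, 243.5 and 276.6 CPM with NFE2L2 siRNA 1 to 3 and at 354.8, 317.5, 274.4 and 258.1 CPM with control siRNA 1 to 4. The first duplex gave the highest value of all libraries and the second the lowest, so the control range lay within that of the knock-down. The log2 fold change was 0.02 ± 0.17 (SE, 95% interval -0.36 to 0.41, edgeR adjusted p = 0.957), and its sign changed in 5 alternatives, none of which was called.

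SLC39A10 (ENSG00000196950.9, chr2:196440701-196602426, plus strand) was at 148.2, 79.4 and 131.5 CPM with NFE2L2 siRNA 1 to 3 and at 139.6, 134.4, 118.7 and 114.5 CPM with control siRNA 1 to 4. One knock-down library was above all controls and one, duplex 2, was below all of them. The log2 fold change was -0.08 ± 0.19 (SE, 95% interval -0.50 to 0.33, edgeR adjusted p = 0.823).

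The NFE2L2 libraries differed more among themselves than the controls did in most of these genes. The ratio of the highest to the lowest library was 2.02 for MT1X, 1.87 for SLC39A10, 1.68 for MT1F and 1.63 for SLC30A1 after knock-down, and 1.78, 1.22, 1.36 and 1.37 in the controls. MT2A was the exception, with 1.54 and 1.55. Duplex 1 gave the highest and duplex 2 the lowest of the 3 knock-down values for MT2A, MT1X, SLC30A1 and SLC39A10, but MT1F was highest with duplex 3. With 1 library per duplex this order has no replicate.

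Levels per kilobase were taken over all annotated exons of a gene, 914 bases for MT2A, 1727 for MT1X and 1852 for MT1F. The canonical transcripts of these 3 genes are shorter, at 401, 404 and 425 bases, and would give them higher levels per kilobase. The order of the genes given here therefore depends on the length used. In the controls SLC30A1 stood highest at 51.1 ± 7.41 CPM per kb (SD, n = 4), followed by MT2A (31.5 ± 5.77), SLC39A10 (18.3 ± 1.74), MT1X (5.57 ± 1.43), MTF1 (2.58 ± 0.02) and MT1F (0.645 ± 0.094). The ranges of these genes did not overlap in the controls. After knock-down MT2A was first at 70.9 ± 16.2 CPM per kb (SD, n = 3) and SLC30A1 second at 51.9 ± 13.7, and their ranges overlapped. MTF1 (2.74 ± 0.27) and MT1F (2.21 ± 0.68) also overlapped after knock-down, and so did SLC39A10 (17.3 ± 5.19) and MT1X (11.5 ± 3.81), which came between.

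The metallothionein genes sit together on chromosome 16, MT1F starting 49.1 kb and MT1X 73.9 kb from the start of MT2A. Of the 13 other metallothionein genes and pseudogenes with an identifier, only MT1A was tested, while no library held more than 3 reads for any of the remaining 12. MT1A, which lies between MT2A and MT1F, was at 2.99, 1.30 and 1.32 CPM with NFE2L2 siRNA 1 to 3, at 1.42, 1.64, 1.51 and 1.47 CPM in the controls and at 2.33 CPM in mock. It was high with the first duplex only and below all controls with the others (log2 fold change 0.30 ± 0.29, edgeR adjusted p = 0.579), and without NFE2L2 siRNA 1 the sign turned. Of 7 genes around the cluster 5 were tested and 0 were called by edgeR, DESeq2 or limma-voom, with 1 at an unadjusted p below 0.05, and their median log2 fold change was 0.06. NUDT21, the one with the highest level of these, had a log2 fold change of 0.06 ± 0.10 (edgeR adjusted p = 0.778). The share of all tested genes at an unadjusted p below 0.05 was not computed, so such counts, here and below, carry no comparison.

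**Figure D3:**
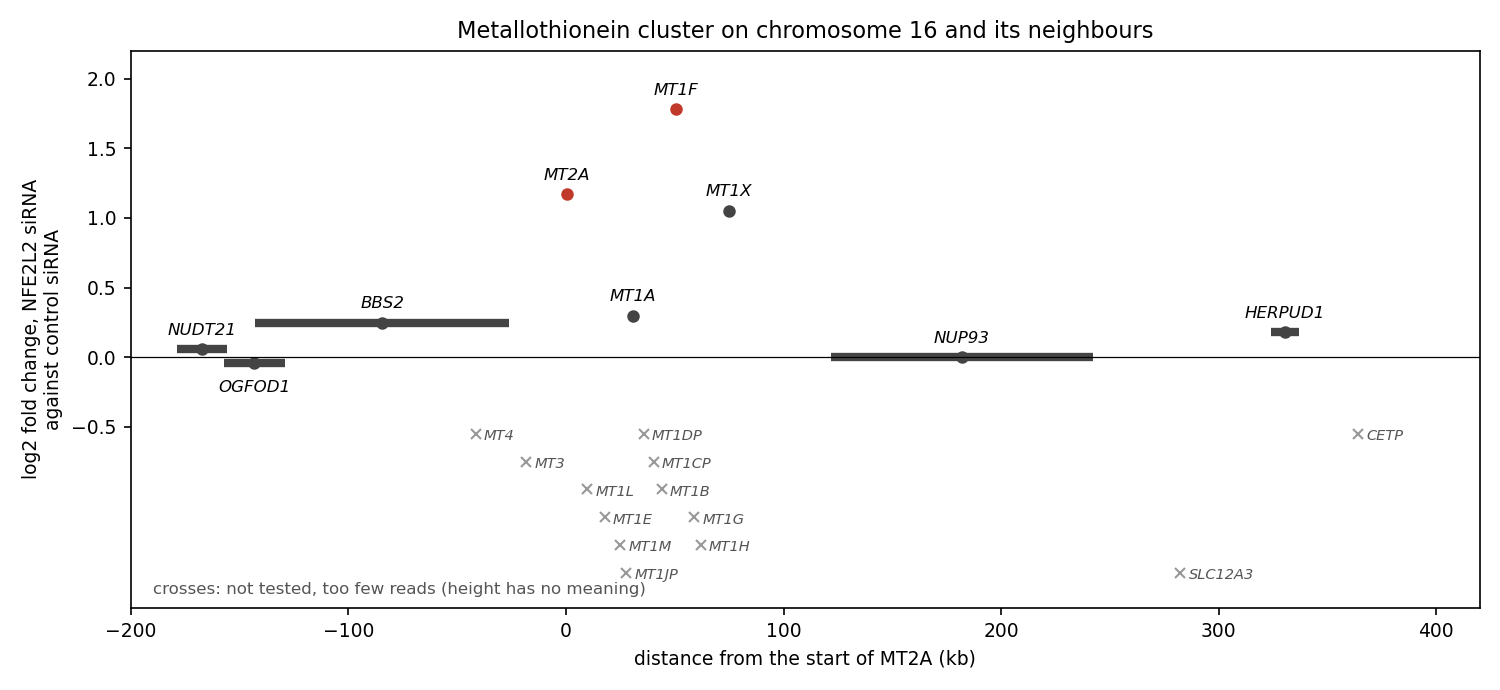
Log2 fold change of NFE2L2 siRNA against control siRNA by distance in kb from the start of MT2A, for tested genes (bars span the gene, red where called) and for genes with too few reads to test (grey crosses, whose height has no meaning). MT2A at 1.17, MT1F at 1.78 and MT1X at 1.05 stand above MT1A at 0.30 and the neighbours shown, of which BBS2 is highest at 0.24.

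The other zinc transporters gave few changes. Among the 9 other SLC30 exporters 6 were tested and 0 were called by edgeR or limma-voom, with 3 at an unadjusted p below 0.05 and 1 called lower by DESeq2, and their median log2 fold change was 0.02. SLC30A5, the most abundant of these and a transporter of the secretory pathway, was at 101.3, 74.98 and 109.6 CPM with NFE2L2 siRNA 1 to 3 and at 115.6 to 129.2 CPM in the controls (log2 fold change -0.34 ± 0.13, edgeR adjusted p = 0.137). SLC30A6, picked after its values were seen, was at 62.7, 72.5 and 71.9 against 84.7 to 99.2 CPM (-0.41 ± 0.10, edgeR adjusted p = 0.0354). The log2 fold change was positive for 4 of the 6 exporters and negative for 2. Among the 13 other SLC39 importers 10 were tested and 0 were called by edgeR, DESeq2 or limma-voom, with 2 at an unadjusted p below 0.05 and a median of 0.15. SLC39A14, which also carries iron and was the most abundant importer, was at 342.2, 275.9 and 302.3 CPM after knock-down and at 253.5 to 282.0 CPM in the controls (log2 fold change 0.19 ± 0.10, edgeR adjusted p = 0.268). SLC30A5 and SLC30A6 lay below all controls in the 3 knock-down libraries, as did 11.4% of all tested genes, and SLC39A14 overlapped the controls. Over all 17811 tested genes DESeq2 called 1314, of which 722 were higher.

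**Figure D4:**
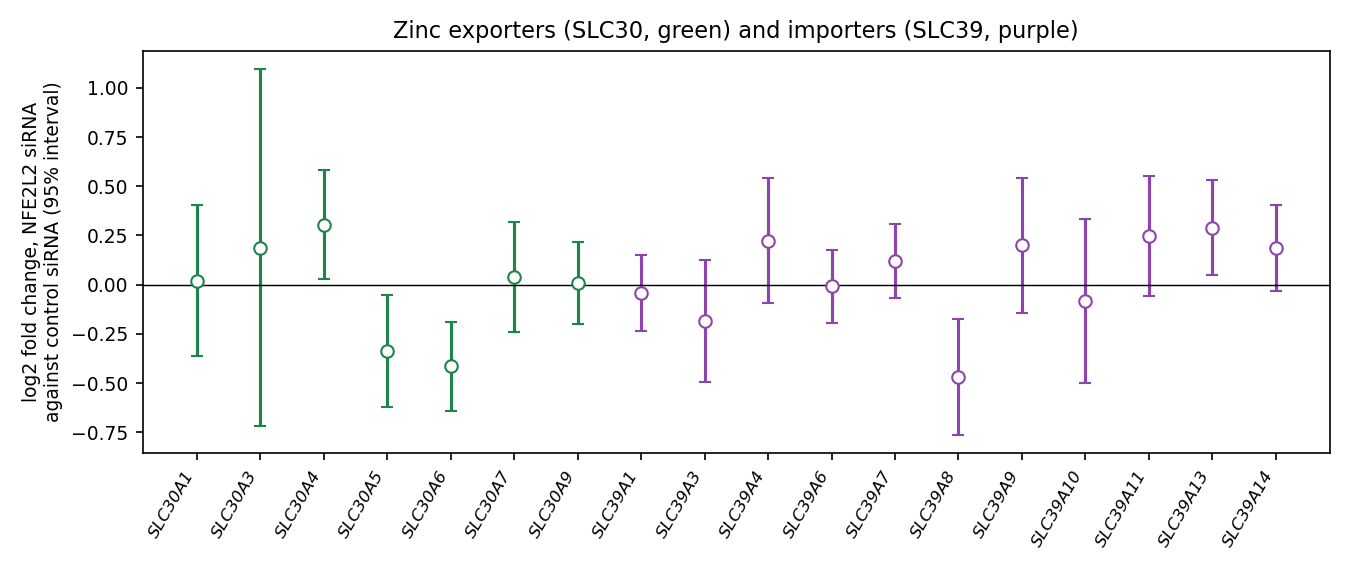
Log2 fold change of NFE2L2 siRNA against control siRNA with its 95% interval (edgeR) for all tested SLC30 exporters (green) and SLC39 importers (purple), with open points for genes not called. No transporter is called, and the values lie between -0.47 and 0.31.

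Targets of MTF1 other than the metallothioneins went both ways. Of 8 tested, 1 was called lower and 0 higher, and the median log2 fold change was -0.13. The lower one was GCLC, the catalytic subunit of glutathione synthesis, which is also an NRF2 target (log2 fold change -2.03 ± 0.09, edgeR adjusted p = 3.45e-06). DESeq2 called 1 higher and 2 lower. The 2 that it added, named here after their values were seen, were SELENOW, with 88.1, 65.5 and 68.7 CPM after knock-down and 34.1 to 54.4 CPM in controls (log2 fold change 0.73 ± 0.18, edgeR adjusted p = 0.0376), and NDRG1, with 46.8, 28.0 and 41.0 against 70.2 to 114.2 CPM (-1.10 ± 0.22, edgeR adjusted p = 0.0141). Between the control duplexes 2 of the 8 MTF1 targets, SELENOW and SLC40A1, were called, both lower with duplex 2, against 3.29% of all genes. SELENOW was at 53.7 CPM with duplex 1 and 35.8 CPM with duplex 2 (log2 fold change -0.58 ± 0.07, edgeR adjusted p = 0.000984). Of the 11 copper-handling genes tested, 0 were called by edgeR or limma-voom, with 5 at an unadjusted p below 0.05 in edgeR and 1 called lower by DESeq2, and the median was -0.07. Between the control duplexes 1 of the 11, SLC31A1, was called. It was at 57.5 CPM with duplex 1 and 83.4 CPM with duplex 2 (log2 fold change 0.54 ± 0.06, edgeR adjusted p = 0.000777).

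Glucocorticoids also induce metallothioneins, and the list of genes that respond to them held 7 genes, of which 6 were tested. TSC22D3, the glucocorticoid-induced leucine zipper, was at 30.8, 33.8 and 43.7 CPM after NFE2L2 siRNA 1 to 3 and at 15.7 to 21.5 CPM in the controls, and it rose (log2 fold change 0.97 ± 0.15, edgeR adjusted p = 0.00469). Its call was lost without NFE2L2 siRNA 3 (adjusted p = 0.016), control siRNA 2 (0.021), control siRNA 3 (0.019) or control siRNA 4 (0.020), with the control duplexes summed (0.071), and against duplex 1 (0.069) or duplex 2 alone (0.040). The other 5 were not called, and the median of the list was 0.06. Of all tested genes 1.39% were called higher. DUSP1, the most abundant, had a log2 fold change of 0.13 ± 0.10 (edgeR adjusted p = 0.452).

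The level of some cell type markers differed between the groups, 1 of them, COL1A1, past the threshold in a test not set by the filter. Among the epithelial genes, and picked after their values were seen, CDH1 was at 222.5 to 236.9 CPM after knock-down and 100.4 to 193.1 CPM in controls (edgeR adjusted p = 0.0455), and EPCAM was at 6.49 to 10.9 and 3.86 to 6.98 CPM (edgeR adjusted p = 0.0624). CDH1 also passed the threshold between the control duplexes, as did 3.29% of all genes. It was at 169.2 CPM with duplex 1 and 106.1 CPM with duplex 2 (log2 fold change -0.67 ± 0.11, edgeR adjusted p = 0.00585). Markers of other cell types were low. The fibroblast list summed to 9.42 to 14.0 CPM after knock-down and 4.15 to 4.65 CPM in controls, with COL1A1 at 9.25 to 13.7 against 3.96 to 4.54 CPM (edgeR adjusted p = 0.000493), and 2 of its 4 genes, COL1A2 and DCN, had under 10 reads in every library. CDH5, the endothelial gene measured, was at 0.503 to 0.917 CPM against 0.108 to 0.222 CPM, with 18 to 39 against 4 to 8 reads. It passed the filter on low counts only through the knock-down libraries, where it was higher, so its test is not used. The leukocyte list summed to 7.66 to 11.1 against 4.40 to 6.71 CPM, and 2 of its 3 genes, PTPRC and CD3E, had under 10 reads in every library. Nearly all of the sum came from CD14, with 301 to 394 reads after knock-down and 156 to 250 in controls. All knock-down libraries lay above all controls for CD14 (log2 fold change 0.80 ± 0.18, edgeR adjusted p = 0.0287). It was called higher by DESeq2 but not by edgeR or limma-voom. The part of these shifts in the metallothionein result was not tested.

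The genes whose pattern over the 8 libraries was most like the mean pattern of MT2A, MT1X and MT1F were sought among 13338 genes, by the root mean square difference of centred log2 levels. DLG3, a scaffold protein of cell junctions, came first with a difference of 0.124, followed by ENSG00000017373.11 (0.133), GPR162 (0.143), IGFL4 (0.146) and RAB11FIP4 (0.149). DLG3 was at 24.3, 19.5 and 21.5 CPM after knock-down and 9.44 to 10.8 CPM in the controls. These genes were chosen for their likeness, so it is a description only.

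The comparison of the control duplexes shows how far the same genes differ between the libraries of the 2 duplexes. From control siRNA 1 to 4, MT2A rose at each step (22.6, 27.0, 30.3 and 35.1 CPM). MT1X fell at each step (13.1, 9.28, 8.70 and 7.37 CPM), as did SLC30A1 and SLC39A10, while MT1F and MTF1 did not follow this order. Duplex and library order cannot be told apart here. None of the 6 genes passed edgeR's threshold between duplex 2 and duplex 1, although 4 had an unadjusted p below 0.05, and DESeq2 called 1 and limma-voom 0. Over all 17261 tested genes 3.29% were called. At an adjusted p below 0.05 it was 3 of the 6, against 10.1% of all genes. Of all calls 54.0% were higher with duplex 2, and 67.9% with library size alone as the scale. Leaving out 1 control library left 1 library of its duplex, and which genes were called depended on the library left out. The log2 fold change was then 0.28 to 0.53 for MT2A and -0.71 to -0.21 for MT1X. It was -0.41 to -0.25 for SLC30A1 and -0.26 to -0.20 for SLC39A10. MT2A was 24.8 ± 3.13 CPM with duplex 1 and 32.7 ± 3.41 CPM with duplex 2 (SD, n = 2 each), a log2 fold change of 0.40 ± 0.10 (edgeR adjusted p = 0.0329). MT1X moved the other way, at 11.2 ± 2.72 and 8.03 ± 0.94 CPM (-0.47 ± 0.16, edgeR adjusted p = 0.0843), and MT1F was at 1.05 ± 0.07 and 1.34 ± 0.02 CPM (0.36 ± 0.23, edgeR adjusted p = 0.360).

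The 2 zinc transporters of the group were lower with duplex 2 than with duplex 1, though neither was called. SLC30A1 was at 336.1 ± 26.4 and 266.2 ± 11.5 CPM (log2 fold change -0.33 ± 0.07, edgeR adjusted p = 0.0191). SLC39A10 was at 137.0 ± 3.72 and 116.6 ± 2.97 CPM (-0.23 ± 0.06, edgeR adjusted p = 0.0403). MTF1 stayed at 20.5 ± 0.04 and 20.7 ± 0.14 CPM (0.02 ± 0.07, edgeR adjusted p = 0.899). For SLC30A1 and SLC39A10 the log2 difference between control duplexes was larger in size than that between knock-down and control. Both comparisons share the control libraries. Among the other transporters, 0 of 6 SLC30 exporters and 1 of 10 SLC39 importers were called between the duplexes, against 3.29% of all genes. The 1 called was SLC39A9, which was higher with duplex 2. It was at 149.7 CPM with duplex 1 and 190.0 CPM with duplex 2 (log2 fold change 0.35 ± 0.06, edgeR adjusted p = 0.00866).

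Set against one control duplex at a time, MT2A and MT1F stayed higher but lost the call, and MT1X, which had none, also stayed higher. Against duplex 1 alone the log2 fold change was 1.37 for MT2A (edgeR adjusted p = 0.023) and 1.95 for MT1F (0.024), and against duplex 2 alone it was 0.98 (0.072) and 1.61 (0.053). MT1X had 0.82 (edgeR adjusted p = 0.213) against duplex 1 and 1.30 (0.093) against duplex 2. With 2 control libraries these fits rest on fewer samples, and the number of called genes over the whole table fell from 491 to 120 and 59. The plot of fold changes by setting gives all alternatives.

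**Figure D5:**
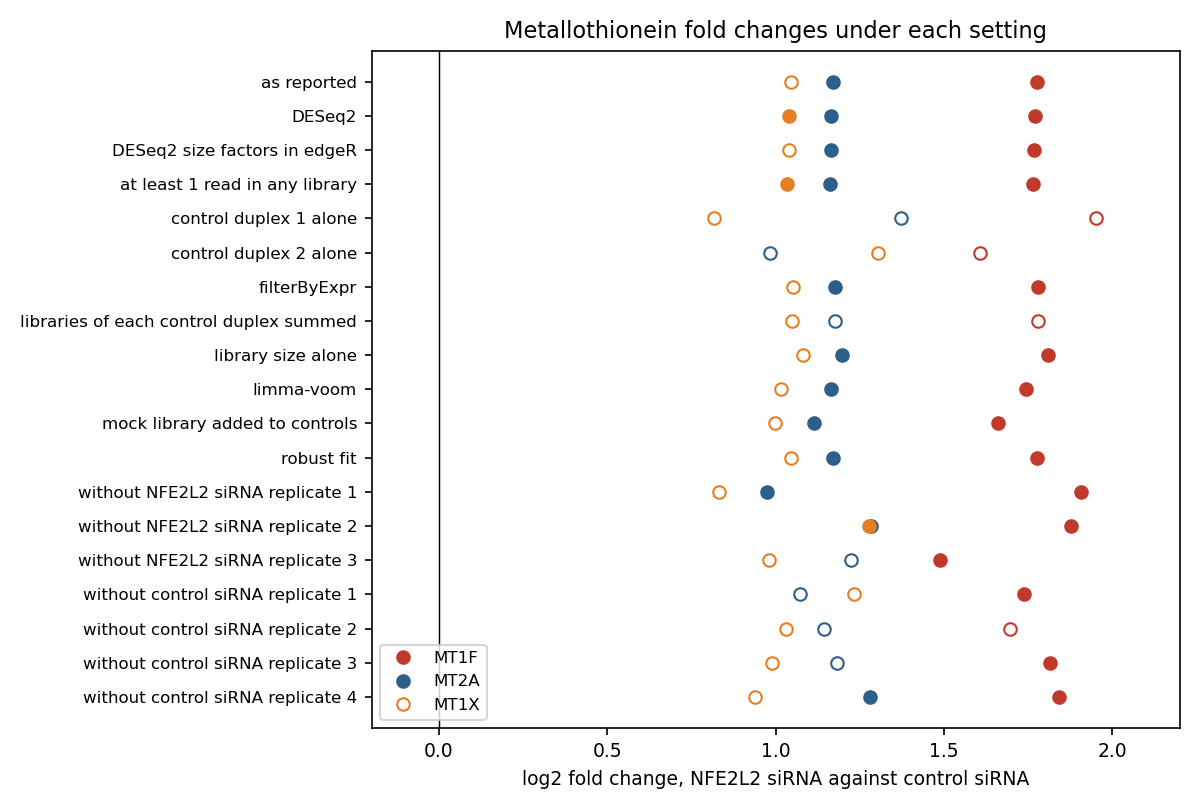
Log2 fold change of MT1F (red), MT2A (blue) and MT1X (orange) for NFE2L2 siRNA against control siRNA under each setting, with filled points where the adjusted p was below 0.01. All points lie above 0, MT1F between 1.49 and 1.95, MT2A between 0.97 and 1.37 and MT1X between 0.82 and 1.30, and MT1F is open in 4 settings.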

How the data were processed

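RNA from 8 A549 transfections was sequenced by the authors as stranded, ribosomal RNA-depleted libraries. Reads were aligned to hg19 with HISAT 0.1.6 and assigned to GENCODE genes with HTSeq 0.6.0 on the reverse strand in its strict intersection mode, and the deposited values are raw read counts per gene. Read length is not given in the sources used here. Rows for unassigned reads were removed, and genes took 60.3 to 65.6% of all entries. Genes with at least 10 reads in 1 library were fitted with edgeR 4.0.16 (TMM, quasi-likelihood, two-sided, Benjamini-Hochberg over all tested genes, threshold 0.01) in R 4.3.3, with 3 NFE2L2 siRNA against 4 control siRNA libraries and mock left out. The standard error is the log2 fold change over the root of F. The scripts were tested on simulated data. DESeq2 1.42.0, limma-voom (limma 3.58.1), other filters, normalizations and control sets were alternatives. Among the 7 libraries compared, no 2 were identical or agreed within sampling noise. The paper describes separate transfections of one line, and the labels give the duplex and the repeat. The p-values take the 4 control libraries as separate, although they are 2 duplexes with 2 repeats each. They thus mix the spread between repeats with that between duplexes. All members and gene lists were chosen with earlier results of these data known. Named genes are the members, called genes of the lists and the most abundant gene of some lists. A few others, such as SELENOW and NDRG1, were picked after their values were seen. Likeness was measured on log2(CPM + 0.5) for genes with a mean of 50 reads or more. Gene positions and exons are from GENCODE v44 on GRCh37, a later release than the one on which the reads were counted. The values of 1 gene near the metallothionein cluster are not reported here.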

Additional observations from a re-analysis of the deposited data

Results flagged for a closer look

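The mock transfection, left out of the comparisons except as an added control in 1 alternative, had more MT1F and MT1A than any control siRNA library. MT1F was at 1.68 CPM in mock (exact Poisson 95% interval 1.30 to 2.13, counting error only) against a highest control of 1.36 CPM, which lies within that interval. MT1A was at 2.33 CPM (1.88 to 2.85) against a highest control of 1.64 CPM. With 1 mock library neither difference was tested, and the MT1F level in mock was below that of all NFE2L2 siRNA libraries.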

How the results depend on the processing

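No paired analysis was possible because a number stands for a duplex among the NFE2L2 libraries and for a repeat of 1 duplex among the controls. The log2 fold changes of MT1F, MT2A, MT1X and MTF1 stayed positive in all 18 alternatives of the knock-down comparison. The number of the 9 genes called in that comparison, 2 as reported, was 0 against control duplex 1 alone, against duplex 2 alone and with reads summed within each control duplex, and 0 to 3 with 1 library left out. Over all genes, the 491 calls became 120, 59 and 78 with those control sets, 772 with mock added to the controls, 1314 with DESeq2, 1019 with genes of 1 read or more kept, 1456 at a threshold of 0.05, and 163 to 915 with 1 library left out. Fewer samples enter the fits with 1 control duplex, and the cause of the other shifts was not tested. SLC30A1 turned negative against control duplex 1 alone (log2 fold change -0.15), with limma-voom (-0.00034) and with 1 library left out (-0.21 to 0.15). SLC39A10 turned positive against control duplex 2 alone (0.035) and was -0.27 to 0.13 with 1 library left out, and MT1A was -0.21 to 0.50. None of these was called. Between the control duplexes, 0 of the 9 genes became 1 with DESeq2, 1 with edgeR's robust fit, 3 at a threshold of 0.05, and 0 to 4 with 1 library left out. The 568 calls over all genes became 4 with genes of 1 read or more kept, 1736 at a threshold of 0.05, and 0 to 2056 with 1 library left out, where the lone library of a duplex is assumed to vary like the other pair. Depth limits MT1E, MT1G and MT1M, which were at or near 0 reads.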
